A study of Mus musculus with 16 samples.

Results

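The 10 genes described here carry out or control antigen presentation by MHC class I in mouse liver. They were chosen by name: the light chain B2m, the heavy chains H2-K1, H2-D1 and H2-T23, the transporter subunits Tap1 and Tap2, the loading factor Tapbp, the immunoproteasome subunits Psmb8 and Psmb9, and the transcriptional regulator Nlrc5. The choice was made with earlier results of these data known, so the shares of all genes given below are for scale only. All 10 were found among the 78317 genes listed, and all 10 passed the filter on low counts that left 14781 genes for testing.

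Class I molecules show short peptides from a cell's own proteins to CD8 T cells and natural killer cells. Proteasomes cut the proteins, TAP carries the peptides into the endoplasmic reticulum, tapasin holds empty molecules beside TAP until a peptide binds, and the loaded heavy chain leaves for the surface together with beta-2-microglobulin. Hepatocytes carry class I at low levels at rest, and interferons raise these genes through factors that include IRF1 and NLRC5.

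RNA was measured in whole liver of wild type C57BL/6J mice that arrived at 6 weeks of age and then ate 1 of 2 diets for 10 weeks. The normal chow had 4.5% of its calories from fat and the high fat diet had 60%, and the diets came from different makers. The 4 groups were females and males on each diet, with 4 libraries a group, and the stated aim was to see what the high fat diet does in each sex. The labels number the replicates but do not say that each is a separate animal, so p-values measure the spread between these libraries, which may be technical.

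RefSeq promoter windows (build GRCm38.p6, 250 bases before to 50 after a start) were found for 8 of the 10 genes, all but Tap2 and Nlrc5. The 250 bases before the start are printed for 4 genes, because class I genes share textbook promoter elements for the factors named above. Capitals mark matches on either strand to the interferon-stimulated response element core (GAAA, any 2 bases, GAAA) and to GAANNGAAA, a shorter pattern not contained in it. They also mark the X2 box core TGACGNNA, its first letters TGACG, and the CCAAT box. GAANNGAAA and TGACG were added after the sequences had been seen. Tap1 (chr17:34187306-34187555, + strand) is printed first, since it is transcribed away from Psmb9 and the windows of these genes share 275 of their 300 bases. In it, CCAAT and TGACGACA stand in capitals.
Tap1: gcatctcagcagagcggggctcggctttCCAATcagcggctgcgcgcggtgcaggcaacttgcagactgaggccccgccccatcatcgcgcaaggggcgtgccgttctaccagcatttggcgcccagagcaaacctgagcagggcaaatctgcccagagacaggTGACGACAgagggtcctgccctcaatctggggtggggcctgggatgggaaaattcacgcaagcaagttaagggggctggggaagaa
B2m (chr2:122147437-122147686, + strand) holds the full element as GAAACTGAAA, and TGACG and ATTGG, which is CCAAT on the other strand, further on.
B2m: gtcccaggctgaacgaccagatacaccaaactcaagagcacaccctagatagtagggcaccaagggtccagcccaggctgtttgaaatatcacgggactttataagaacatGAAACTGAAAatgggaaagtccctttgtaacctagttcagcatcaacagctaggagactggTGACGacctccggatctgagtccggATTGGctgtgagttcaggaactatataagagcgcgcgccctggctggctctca
The stretches of H2-K1 (chr17:34000334-34000583, - strand, the first of 2 windows) and H2-D1 (chr17:35262844-35263093, + strand) hold the same run of matches, first TTTCACTTC, which is GAANNGAAA on the other strand, then the TGACG letters, and then a CCAAT box on each strand.
H2-K1: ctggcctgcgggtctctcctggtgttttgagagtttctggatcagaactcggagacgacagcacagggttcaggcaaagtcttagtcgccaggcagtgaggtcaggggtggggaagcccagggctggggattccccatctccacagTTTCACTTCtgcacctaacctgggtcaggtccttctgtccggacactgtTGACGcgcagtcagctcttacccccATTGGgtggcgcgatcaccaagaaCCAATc
H2-D1: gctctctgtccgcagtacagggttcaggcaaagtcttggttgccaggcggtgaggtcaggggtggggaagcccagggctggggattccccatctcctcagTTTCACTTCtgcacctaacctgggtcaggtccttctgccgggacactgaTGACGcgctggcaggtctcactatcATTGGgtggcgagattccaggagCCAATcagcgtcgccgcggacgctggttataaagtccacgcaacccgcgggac

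Over all 32851 windows of 300 bases in the table, the full interferon element core was in 3.44% and was in the windows of B2m and H2-T23 here. TGACGNNA was in 6.61% and here in Tap1 and Psmb9, which share the same stretch. The shorter GAANNGAAA was in 7.52%, and here in H2-K1 and H2-D1. TGACG, which every TGACGNNA match contains, was in 20.8% and in 5 of the 8 genes, and CCAAT was in 37.4% and in 7 of the 8, all but Psmb8. These are matches of letters, not binding sites.

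Library totals ranged from 22228115 to 41420589 expected counts. Expected counts are read numbers that RSEM estimates per gene, dividing reads that fit several genes. Values per library below are CPM, counts scaled to a common library size after TMM scaling, and those in TPM, which also allow for gene length, are named as such. Albumin reached at least 25496 TPM in every library. Male high fat diet replicates 2 and 3 were closer to each other than any other pair within a group (chi-square per gene 4.00, against 20.7 or more), which still exceeds sampling noise, and they were counted as 2 samples. Female high fat diet replicates 1 and 4 had more of each of the 10 genes than replicates 2 and 3 of that group, so counts are also given without both. That alternative was chosen on these same values, and leaving out the high libraries lowers the estimates by construction. In whole liver, a change in the number of cells of a type and a change in RNA per cell cannot be told apart.

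Per length, the 10 genes spanned a wide range, written here as TPM. B2m came first with a median of 3177 TPM over the 16 libraries (2582 to 5148), followed by H2-K1 with 855 (674 to 1762), H2-D1 with 289 (194 to 617) and H2-T23 with 162 (105 to 388). The light chain, which all class I heavy chains share, thus exceeded each of the 3 heavy chains in all 16 libraries. For scale, the liver-restricted heavy chain gene H2-Q10, whose product is largely secreted, had 1274 ± 95.9 TPM (SD, n = 4) in females on the normal diet, more than H2-K1 had there (875 ± 116). Peptide supply genes were lower. Tapbp had a median of 39.3 TPM (28.5 to 87.6), Psmb8 26.1 (15.95 to 90.2), Psmb9 10.7 (4.42 to 65.0), Tap1 6.21 (2.75 to 33.2), Tap2 5.54 (3.89 to 17.5) and Nlrc5 1.81 (1.13 to 3.36). Tap1 exceeded Tap2 in 9 of 16 libraries. These were every high fat diet library of both sexes and, on the normal diet, male replicate 3 only (5.11 against 5.04 TPM). The other neighbours kept their order in at least 14 of 16.

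The diet comparison in females asked which of these genes changed on high fat diet. Nlrc5, Psmb9, Tap1 and Tap2 rose, which are the regulator, an immunoproteasome subunit and both subunits of the peptide transporter. The rises were 1.57-fold for Nlrc5, 2.04-fold for Tap2, 3.42-fold for Psmb9 and 3.70-fold for Tap1. B2m and the 3 heavy chains were between 1.12- and 1.26-fold of their normal diet level and did not pass the test. In all, 4 of 10 genes were called, all as higher, where 11.5% of the 14781 genes were called and 5.74% were called as higher (edgeR's quasi-likelihood test, Benjamini-Hochberg adjusted p under 0.05). The median log2 fold change of the 10 was 0.52, against 0.00 over all genes tested. Each member had a value above 0.

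Nlrc5 (ENSMUSG00000074151.15), the transactivator that binds class I promoters, had 17.2, 9.72, 9.84 and 16.5 CPM in female high fat diet replicates 1 to 4. On the normal diet the replicates had 7.38, 9.66, 9.51 and 7.37 CPM. The groups did not overlap, but high fat diet replicates 2 and 3 lay only just above the highest normal diet library. This is a log2 fold change of 0.65 ± 0.18 (SE; adjusted p = 0.0292). The call was lost without high fat diet replicate 1 (0.50, adjusted p = 0.0914) or 4 (0.53, 0.105), and without normal diet replicate 1 (0.61, 0.0779) or 4 (0.60, 0.0786).

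Psmb9 (ENSMUSG00000096727.4) encodes the immunoproteasome subunit that takes the place of Psmb6. It had 45.7, 12.0, 14.7 and 49.6 CPM on the high fat diet and 9.90, 11.8, 7.57 and 6.41 CPM on the normal diet. Replicates 1 and 4 were far above the rest, and replicate 2 was barely above the highest normal diet value. Its log2 fold change was 1.77 ± 0.39 (adjusted p = 0.0116). Psmb8 (ENSMUSG00000024338.16), the counterpart of Psmb5, had 74.1, 28.7, 31.6 and 86.7 CPM on the high fat diet and 33.0, 36.0, 27.8 and 20.3 CPM on the normal diet. Here replicates 2 and 3 lay within the normal diet range, and the difference of 0.92 ± 0.30 missed the threshold (adjusted p = 0.0624). It was called without high fat diet replicate 2 (1.13, adjusted p = 0.015) or replicate 3 (1.12, 0.0228). With all libraries, DESeq2 called Psmb8 (0.92, adjusted p = 0.0119). So did limma on log2(TPM + 1) (1.00, 0.0299) and log2(TPM + 0.1) (1.02, 0.0321).

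Tap1 (ENSMUSG00000037321.18), a transporter subunit, had 51.7, 19.4, 22.9 and 63.0 CPM on the high fat diet against 10.2, 11.2, 11.8 and 9.27 CPM on the normal diet. All high fat diet libraries were above all normal diet libraries with a wide gap, also replicates 2 and 3. The log2 fold change of 1.89 ± 0.30 was called (adjusted p = 0.0013), and this held in all 26 settings tried, with adjusted p between 2.64e-09 and 0.021. Tap2 (ENSMUSG00000024339.13), the other subunit, had 39.5, 15.9, 18.9 and 39.8 CPM against 13.0, 14.1, 16.1 and 12.6 CPM. Replicate 2 overlapped the normal diet group. Its log2 fold change was 1.03 ± 0.24 (adjusted p = 0.0112). Tapbp (ENSMUSG00000024308.16), which encodes tapasin, had 129.5, 70.02, 87.5 and 147 CPM against 87.5, 92.2, 81.0 and 70.4 CPM, and the groups overlapped (0.39 ± 0.18, adjusted p = 0.168). Without high fat diet replicate 2 it was called (0.55, adjusted p = 0.0322). In the GENCODE M21 annotation exons of Tap1 and Psmb9 overlap on opposite strands, and whether counting used the strand is not given in the sources used here, so reads in the overlap cannot be assigned to either. Exons of Tap2 and Psmb8 overlap those of Gm20496, Tap2 also Gm15821, Tapbp those of Zbtb22 and Gm19412, and Nlrc5 those of 9330175E14Rik.

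B2m (ENSMUSG00000060802.9), the shared light chain, had 1622, 1460, 1571 and 2104 CPM on the high fat diet and 1652, 1657, 1411 and 1307 CPM on the normal diet. Only replicate 4 was above the normal diet range. The log2 fold change was 0.16 ± 0.12 (adjusted p = 0.413). H2-K1 (ENSMUSG00000061232.17), a classical heavy chain that presents peptides to CD8 T cells, had 1195, 931, 1079 and 1678 CPM against 1057, 1111, 1087 and 849 CPM (0.25 ± 0.15, adjusted p = 0.303). The second classical heavy chain of this strain, H2-D1 (ENSMUSG00000073411.13), had 544, 418, 448 and 798 CPM against 454, 513, 442 and 347 CPM (0.33 ± 0.17, adjusted p = 0.233). H2-T23 (ENSMUSG00000067212.9), the non-classical Qa-1 heavy chain read by natural killer cell receptors, had 312, 187, 191 and 329.9 CPM against 248, 248, 187 and 167 CPM (0.26 ± 0.18, adjusted p = 0.36). For all 3 heavy chains, replicates 1 and 4 were above every normal diet library and replicates 2 and 3 were within the normal diet range. B2m was called only on log2(TPM + 1) and log2(TPM + 0.1) with limma (adjusted p = 0.0276 and 0.0279), and H2-K1 only on the former (0.0499). The expected counts of H2-K1 and H2-T23 were not whole in 16 of 16 libraries, and those of H2-D1 in 15, as happens where RSEM divides reads among genes. Among the other genes this was so for Tapbp in 13 libraries, Tap1 and Psmb9 in 4 each and Tap2 in 3.

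**Figure D1:**
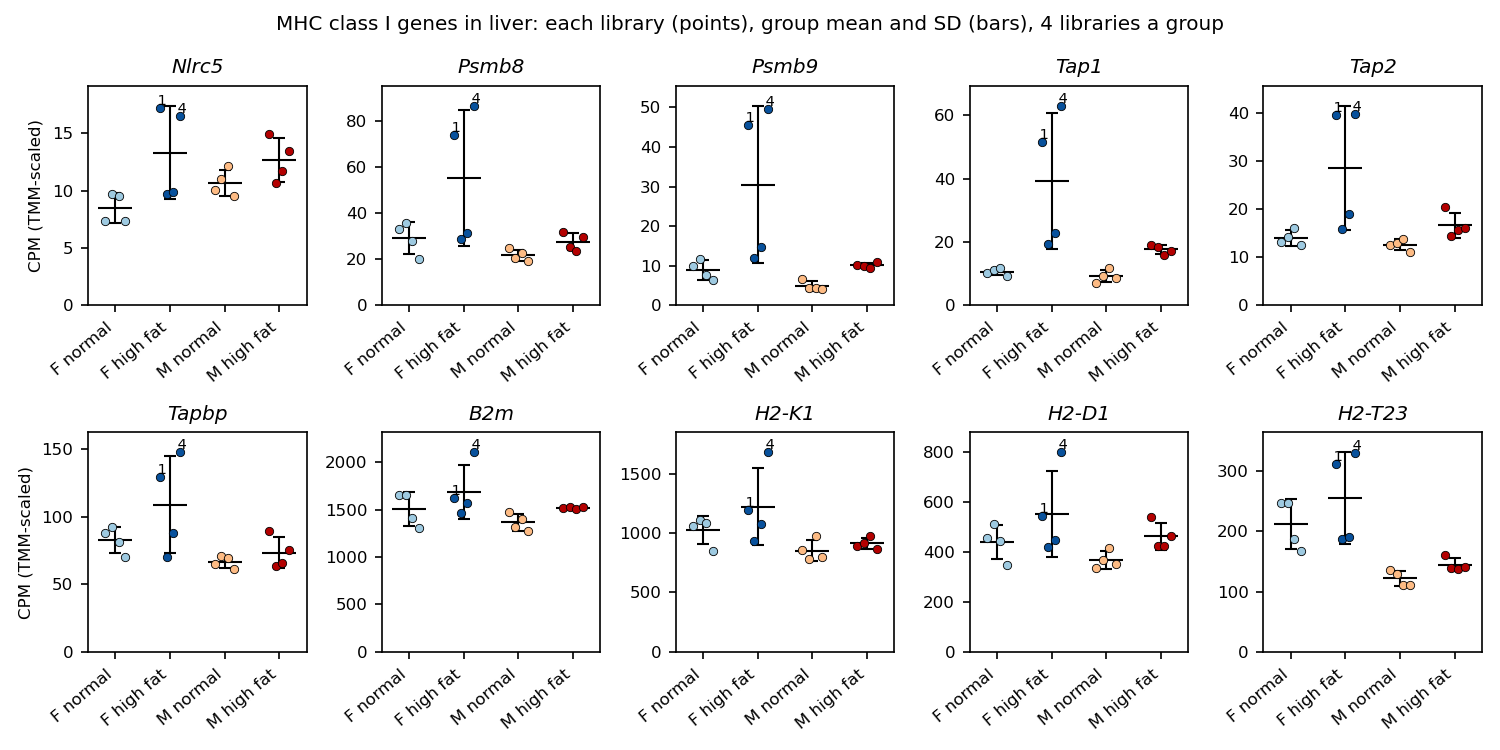
CPM of each of the 10 genes (vertical axis, after TMM scaling) in the 4 groups, with 1 point per library and bars for the group mean and SD of 4 libraries. Female high fat diet replicates 1 and 4, numbered, were above the other libraries of their group in every panel, and in the Tap1 panel all 4 libraries of that group were above the normal diet females.

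Without female high fat diet replicates 1 and 4, Tap1 was the only one of the 10 genes called in females, at 1.00 ± 0.16 (log2, adjusted p = 0.00228). The background then was 2.96% of 15429 genes called and 1.46% called as higher. Psmb9 had 0.58 ± 0.22 (adjusted p = 0.168), Tap2 0.32 ± 0.15 (0.264) and Nlrc5 0.21 ± 0.16 (0.53). With only the 8 female libraries in the fit, Psmb9 (adjusted p = 0.076), Tap2 (0.0558) and Nlrc5 (0.0652) were not called. Leaving out replicates 1 and 4, for H2-K1, H2-D1, H2-T23 and Tapbp the difference turned to the other side of 0, at -0.03, -0.02, -0.17 and -0.07. Within the high fat diet females the highest library exceeded the lowest 4.14-fold for Psmb9, 3.24-fold for Tap1, 3.02-fold for Psmb8 and 2.50-fold for Tap2, and 1.44-fold for B2m. Among normal diet females no gene of the set spanned more than the 1.84-fold of Psmb9.

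**Figure D2:**
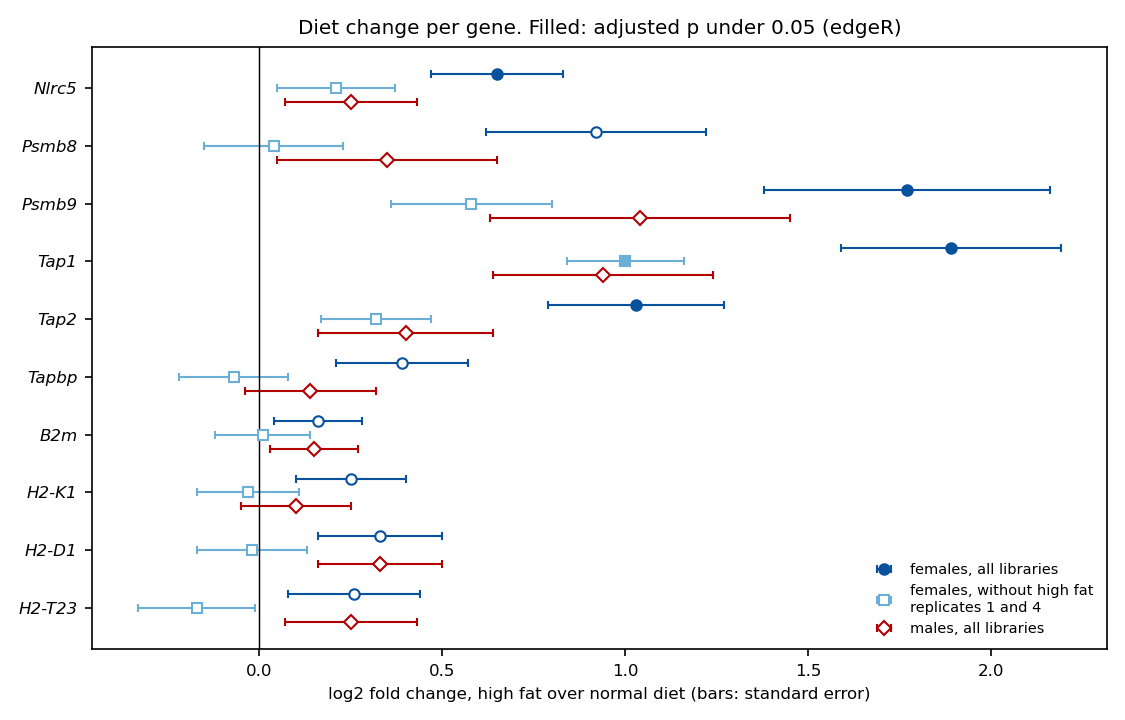
Log2 fold change of each gene, high fat over normal diet (horizontal axis), with bars for the standard error and filled symbols where the adjusted p of edgeR's quasi-likelihood test was under 0.05. Circles are females with all libraries, squares females without high fat diet replicates 1 and 4, and diamonds males; Tap1 was filled in both female series and no diamond was filled.

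In males none of the 10 genes was called by edgeR with all 16 libraries in the fit, where 11.4% of all genes were called and 6.03% as higher. Tap1 and Psmb9 were again the furthest from 0, at 1.92-fold and 2.06-fold. At an unadjusted p under 0.05 there were 2, Tap1 and Psmb9. With only the male libraries in the fit, edgeR called Tap1 (0.95 ± 0.15, adjusted p = 0.00327) and Psmb9 (1.05 ± 0.16, 0.00351). In that fit 1438 of 13908 genes were called. DESeq2 called 2 (2250 of 14781 genes in all), limma called 1 on log2(TPM + 0.1) and 0 on log2(TPM + 1). Without female high fat diet replicates 1 and 4 the standard error of Tap1 in males was 0.13 in place of 0.30, and 3 were called in males (13.6% of all genes, 7.19% as higher): Tap1 (adjusted p = 0.000292), Psmb9 (0.00212) and Tap2 (0.0409). The median log2 fold change of the 10 genes was 0.29, against 0.01 over all genes.

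Tap1 had 19.2, 18.5, 15.8 and 17.2 CPM in male high fat diet replicates 1 to 4 and 7.04, 9.36, 11.7 and 8.72 CPM on the normal diet. The lowest high fat diet library was well above the highest normal diet library. The log2 fold change was 0.94 ± 0.30 (adjusted p = 0.0548), and it passed the threshold without female high fat diet replicate 2 (adjusted p = 0.0179), 3 (0.0349) or 4 (0.0217). Psmb9 had 10.1, 9.81, 9.55 and 10.9 CPM against 6.71, 4.45, 4.28 and 4.196 CPM, again with no overlap (1.04 ± 0.41, adjusted p = 0.114). It passed without female high fat diet replicate 2 (adjusted p = 0.0495). Tap2 had 20.3, 14.4, 15.6 and 16.1 CPM against 12.6, 13.0, 13.7 and 11.1 CPM, and its groups were next to each other without overlap (0.40 ± 0.24, adjusted p = 0.296). Male high fat diet libraries were closely spaced for Tap1 and Psmb9, the highest being 1.22-fold and 1.14-fold of the lowest, while for Tap2 replicate 1 was above the other three (1.41-fold).

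B2m also parted the male groups without overlap, although by little: it had 1514, 1525, 1504 and 1531 CPM on the high fat diet and 1471, 1313, 1402 and 1280 CPM on the normal diet (0.15 ± 0.12, adjusted p = 0.457). H2-D1 had 538, 423, 424 and 464 CPM against 334, 366, 417 and 353 CPM (0.33 ± 0.17, adjusted p = 0.228), and H2-T23 had 161, 139, 138 and 141 CPM against 136, 129.9, 111 and 111 CPM (0.25 ± 0.18, adjusted p = 0.396). In all, 6 of the 10 genes were higher in every male high fat diet library than in any normal diet one, against 9.32% of all genes, and 3 of 10 in females (Tap1, Psmb9 and Nlrc5), against 8.71%. The 4 whose male groups overlapped were H2-K1 (0.10 ± 0.15), Tapbp (0.14 ± 0.18), Nlrc5 (0.25 ± 0.18) and Psmb8 (0.35 ± 0.30). Nlrc5 had 14.9, 10.6, 11.7 and 13.5 CPM in high fat diet males and 10.1, 10.99, 12.1 and 9.501 CPM on the normal diet, so the regulator had no clear shift there.

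The difference between the diet changes of the sexes was tested directly as an interaction, females minus males. None of the 10 genes was called by edgeR, where 0.677% of all genes were, 1 (Tap1) had an unadjusted p under 0.05, and DESeq2 and limma called 0. The log2 interaction was 0.94 ± 0.42 for Tap1 (adjusted p = 0.354), 0.63 ± 0.34 for Tap2 (0.453), 0.73 ± 0.56 for Psmb9 (0.634), 0.57 ± 0.43 for Psmb8 (0.627) and 0.40 ± 0.26 for Nlrc5 (0.548). The calls in females and their absence in males therefore do not show a difference between the sexes. It was 0.25 ± 0.26 for Tapbp and 0.15 ± 0.22 for H2-K1, and between -0.00 and 0.02 for B2m, H2-D1 and H2-T23. Without female high fat diet replicates 1 and 4 the interaction was 0.05 for Tap1 and below 0 for the other 9 genes, from -0.04 for Nlrc5 to -0.46 for Psmb9. It had then changed sign for 8 of them, all but H2-D1 (-0.35): Psmb8 had -0.30, Tap2 -0.08, Tapbp -0.21, H2-K1 -0.13, H2-T23 -0.41 and B2m -0.14. None was called in that setting either.

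**Figure D3:**
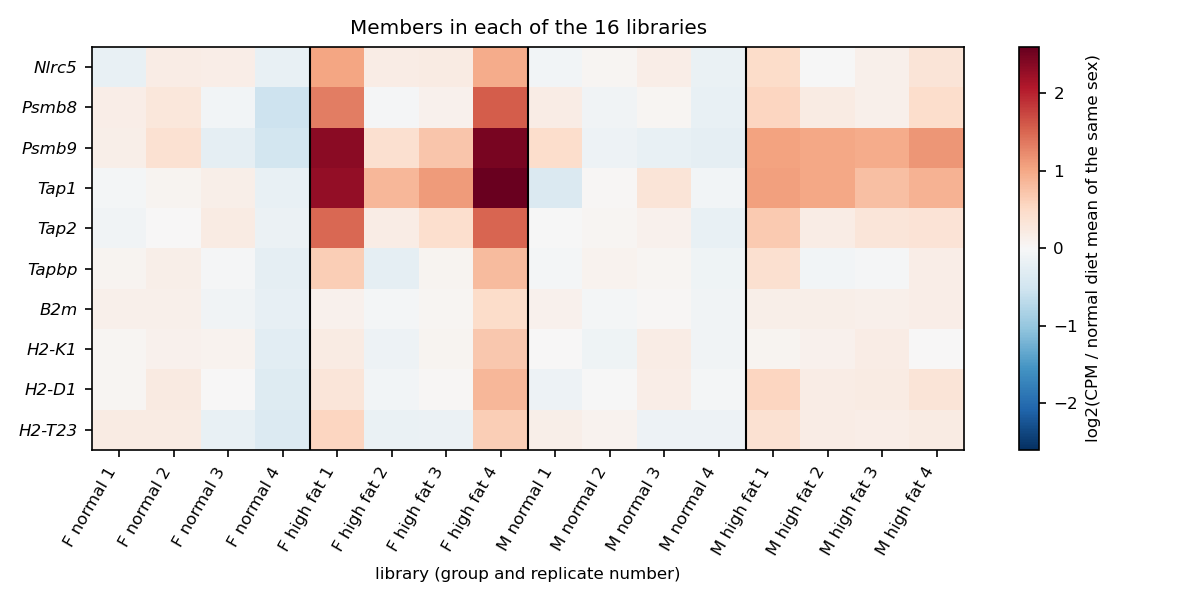
Each gene (rows) in each of the 16 libraries (columns), coloured by log2 of its CPM over the mean of the normal diet libraries of the same sex. Female high fat diet replicates 1 and 4 were the darkest columns, and the Tap1 and Psmb9 rows were raised in all 8 high fat diet libraries.

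Females and males were also compared on each diet. On the normal diet, with all 16 libraries in the fit, only H2-T23 was called, higher in females at 1.74-fold (0.80 ± 0.18, adjusted p = 0.00578), where 15.7% of all genes were called and 7.03% as higher. The female libraries had 167 to 248 CPM and the male ones 111 to 136 CPM, with no overlap, as in 9.86% of all genes, and this call held in all 26 settings. Psmb9 was 1.82-fold higher in females without passing (0.87 ± 0.41, adjusted p = 0.164), and Nlrc5 leaned to males (-0.33 ± 0.18, adjusted p = 0.235). With only the normal diet libraries in the fit, Psmb9 (0.87 ± 0.21, adjusted p = 0.0133) and Tapbp (0.32 ± 0.10, 0.0388) were called too, where 2712 of 14038 genes were. Psmb9 was also called without female high fat diet replicates 1 and 4 (adjusted p = 0.00542), where 2740 of 15429 genes were. On the high fat diet 6 of the 10 genes were called, all higher in females, where 20.4% of all genes were called and 8.84% were called as higher. They were Psmb9 (3.03-fold, adjusted p = 0.0121), Tap1 (2.22-fold, 0.0131), Psmb8 (2.00-fold, 0.0315), H2-T23 (1.76-fold, 0.00423), Tap2 (1.72-fold, 0.0285) and Tapbp (1.48-fold, 0.0346). For 3 of them, H2-T23, Tap1 and Psmb9, every female library was above every male one, against 10.3% of all genes. H2-K1 was at 1.34-fold (adjusted p = 0.0586) and Nlrc5 at 1.05-fold (0.805). This comparison shares its female high fat diet libraries with the diet comparison.

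Several of these calls depended on single libraries. Between the sexes on the high fat diet, none of the 10 genes was called without female high fat diet replicates 1 and 4, where 7.4% of all genes were (3.39% as higher), and 2 (H2-T23 higher and Nlrc5 lower in females) had an unadjusted p under 0.05. With 1 library left out, Tap2, Tapbp and Psmb8 were lost without female high fat diet replicate 1 (adjusted p = 0.108, 0.108 and 0.106) or 4 (0.0989, 0.136 and 0.1), and without male high fat diet replicate 2 (0.0731, 0.0896 and 0.0737), 3 (0.062, 0.0793 and 0.0769) or 4 (0.0705, 0.0702 and 0.0646). Psmb9, Tap1 and H2-T23 were called with each single library left out, and with only the 8 high fat diet libraries in the fit H2-T23 alone was called (Tap1 0.0702, Psmb9 0.0632). H2-K1 was gained without female high fat diet replicate 2 (adjusted p = 0.0209) or 3 (0.0457), or female normal diet replicate 4 (0.0466). With all libraries H2-K1 was called by DESeq2 (adjusted p = 0.0245) and by limma on log2(TPM + 1) (0.0181) and log2(TPM + 0.1) (0.0182).

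Because RSEM divides reads among near-identical class I heavy chain genes, 15 of them, H2-K1, H2-D1 and H2-T23 among them, were also summed before testing. The sum was 3988, 2775, 3160 and 4335 CPM in females on the high fat diet and 3412, 3584, 3270 and 2718 CPM on the normal diet. In males it was 2641, 2773, 2868 and 2386 CPM against 2890, 2856, 2932 and 2515 CPM. The total of heavy chain RNA overlapped between the diets in both sexes, at 0.14 ± 0.14 in females (adjusted p = 0.57) and -0.07 ± 0.14 in males (0.794). Between the sexes it was 1.34-fold higher in females on the high fat diet (0.42 ± 0.14, adjusted p = 0.0413). That call was lost without female high fat diet replicate 1 (adjusted p = 0.102) or 4 (0.143), male high fat diet replicate 1 (0.053), 2 (0.0568) or 4 (0.117), or male normal diet replicate 3 (0.0521). H2-Q10 made up much of the sum, and in males it had 861, 1111, 1141 and 742 CPM on the high fat diet against 1421, 1453, 1294 and 1131 CPM on the normal diet (-0.46 ± 0.16, adjusted p = 0.0691).

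Psmb8, Psmb9 and Psmb10 replace Psmb5, Psmb6 and Psmb7 in the catalytic core when a proteasome is built as an immunoproteasome. The ratio of TPM within a library shows their balance without any scaling between libraries. Psmb9 to Psmb6 was 0.340, 0.113, 0.128 and 0.421 in females on the high fat diet and 0.0612, 0.0817, 0.0523 and 0.0452 on the normal diet. In males it was 0.0834, 0.0903, 0.0871 and 0.107 with high fat and 0.0431, 0.0350, 0.0346 and 0.0334 on the normal diet. Every high fat diet library was above every normal diet library of its sex, by 3.63-fold in females and 2.52-fold in males on the geometric mean. Psmb8 to Psmb5 was 2.05-fold higher in females, with 0.713, 0.377, 0.383 and 1.16 on the high fat diet against 0.205 to 0.336. In males it was 1.49-fold higher, with 0.363, 0.311, 0.260 and 0.379 against 0.196 to 0.250, again without overlap. Each of these 4 comparisons had an exact permutation p (two-sided) of 0.0286, which no test over 35 splits can go below, and 0.0429 after adjustment over 6 such tests. With 1 normal diet library left out, of either sex, the adjusted p of all 4 was over 0.05. For the sex that lost no library the exact p and the fold stayed the same and only the adjustment over 6 tests moved. In the sex that lost one, the exact p was 0.0857 to 0.143 for Psmb8 to Psmb5 and 0.0571 for Psmb9 to Psmb6 in females, and 0.0571 and 0.0286 in males. With female high fat diet replicates 1 and 4 left out, the female log2 ratios were 0.40 for Psmb8 to Psmb5 (exact p = 0.2) and 1.03 for Psmb9 to Psmb6. Psmb10 to Psmb7 overlapped between diets: 0.367, 0.186, 0.217 and 0.477 against 0.125 to 0.214 in females (1.72-fold, exact p = 0.0571, adjusted 0.0686) and 1.07-fold in males (exact p = 0.543). Of the numerators, Psmb9 in females was called by edgeR with all 16 libraries in the fit. Psmb8 in both sexes, Psmb9 in males and Psmb10 in both (-0.26 ± 0.26 in males) were not. Of the denominators, Psmb6 fell by 0.31 ± 0.10 in females (adjusted p = 0.0493). That call was lost in 21 of its 25 alternatives and in 14 of the 16 that left out 1 library (adjusted p up to 0.17). Psmb7 fell by 0.35 ± 0.11 in males (adjusted p = 0.0376), a call lost in 13 of 25 alternatives. These falls are in TMM-scaled counts, while the ratios are of TPM. On log2(TPM + 1), limma gave -0.08 for Psmb6 in females (adjusted p = 0.543) and -0.27 for Psmb7 in males (0.067).

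**Figure D4:**
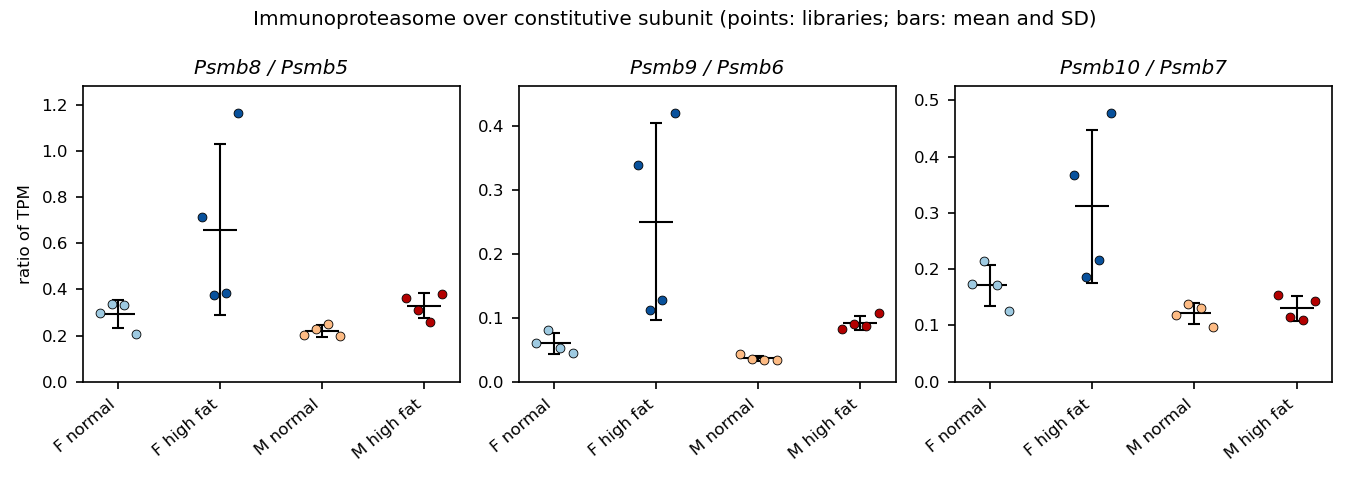
Ratio of TPM of each immunoproteasome subunit to the constitutive subunit it replaces (vertical axis) in the 4 groups, with 1 point per library and bars for the mean and SD of 4 libraries. The high fat diet points were above all normal diet points of the same sex for Psmb8 to Psmb5 and Psmb9 to Psmb6, and overlapped them for Psmb10 to Psmb7.

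The other genes of the pathway were taken from lists chosen for their role, also with earlier results of these data known. Of 12 further class I heavy chain genes 9 were tested, and in females 2 were called, both higher, where 5.74% of all genes were. They were H2-Q4 (1.77-fold, adjusted p = 0.0292) and H2-T24 (2.02-fold, 0.00729). The median was 0.68, with H2-Q6 at 0.78 ± 0.26 (adjusted p = 0.0622), H2-Q7 at 0.44 ± 0.28 and H2-Q10 at -0.14 ± 0.16. With all libraries H2-Q6 was called by DESeq2 (adjusted p = 0.0206) and by limma on log2(TPM + 1) (0.0241) and log2(TPM + 0.1) (0.0264). By edgeR it was called without female high fat diet replicate 2 (0.0139) or 3 (0.0319). H2-Q4 was lost without female high fat diet replicate 1 (adjusted p = 0.0813) or 4 (0.1) and without normal diet replicate 1 (0.0533), 3 (0.0633) or 4 (0.0798). In males the median was 0.45, 8 of the 9 were above 0, and 5 had an unadjusted p under 0.05, 4 higher and 1 lower. H2-Q4 had 24.3 to 29.5 CPM in males on the high fat diet against 16.4 to 18.7 CPM, without overlap, as in 9.32% of all genes (0.62, adjusted p = 0.0906). It was called in 4 of 26 settings. The main fit called 1 in males, where 6.03% of all genes were called higher. This was H2-Q1, which had 1.11, 17.1, 15.8 and 5.31 CPM on the high fat diet against 1.40 to 2.83 CPM (2.36 ± 0.60, adjusted p = 0.0235). The call was not kept without male high fat diet replicate 2 (adjusted p = 0.0682) or 3 (0.0667) or male normal diet replicate 1 (0.0655), 3 (0.061) or 4 (0.0662). The 5 partners of B2m outside the MHC (Cd1d1, Mr1, Hfe, Fcgrt and Azgp1) had medians of -0.16 in females and -0.10 in males. None of them was called by edgeR, DESeq2 or limma, with 0 in females and 1 in males at an unadjusted p under 0.05, and on log2(TPM + 1) the female median was above 0, at 0.08. All 10 genes of peptide loading and trimming were tested, with medians of -0.07 and -0.12, and none was called in either sex by edgeR or DESeq2, with 1 at an unadjusted p under 0.05 in each sex. On log2(TPM + 1), which moved the female median of all genes to 0.15, the female median turned to 0.18 and limma called 2 higher, and 0 in males. Among them Erap1, which trims peptides in the endoplasmic reticulum, had -0.03 ± 0.13 in females and 0.19 ± 0.13 in males.

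The remaining immunoproteasome and PA28 genes were 5, with medians of 0.17 in females and -0.21 in males. None was called for diet by edgeR, DESeq2 or limma, and 1 in females and 0 in males had an unadjusted p under 0.05. Psmb10, the third inducible catalytic subunit, had 49.2, 20.1, 24.6 and 50.1 CPM in females on the high fat diet and 27.2, 29.8, 23.2 and 17.7 CPM on the normal diet (0.56 ± 0.26, adjusted p = 0.17). It showed the pattern of Psmb8, with replicates 1 and 4 high and 2 and 3 within the normal diet range, and was called only without high fat diet replicate 2 (adjusted p = 0.0386). Psme1 and Psme2, the PA28 cap subunits, had 0.15 ± 0.20 and 0.26 ± 0.20. The 14 genes of the constitutive core had a median of -0.26 in both sexes. Of them, 1 was called lower in females (Psmb6) and 3 in males (Psmb4, Psmb7 and Psma5, the last at -0.40 ± 0.12). Of all 14781 genes, 852 were called lower in females and 793 in males. Psmb4 (-0.36 ± 0.11, adjusted p = 0.0464) was called in 9 of 26 settings and lost in 12 of the 16 that left out 1 library, with adjusted p up to 0.139. On log2(TPM + 1), where the median of all genes was 0.15 in females, 5 of the 14 were above 0 in females, the median was -0.03 and none was called, with 0 called in males too. Psma5 was lost without male high fat diet replicate 2 (adjusted p = 0.0767), 3 (0.0743) or 4 (0.0996), or male normal diet replicate 1 (0.117), 2 (0.0507) or 4 (0.0623), and Psmb7 without each male library but normal diet replicate 2, and without female high fat diet replicate 3, with adjusted p up to 0.123.

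The transcription factors that act on class I promoters numbered 12, and 4 were called in females, all higher, where 5.74% of all genes were. The 4 were Irf1 (1.41 ± 0.19, adjusted p = 0.000225), Rfx5 (1.08 ± 0.15, 0.000264), Nfyb (0.49 ± 0.09, 0.0027) and Nfkb1 (0.50 ± 0.13, 0.0179). In males none of the 12 was called by edgeR (2 at an unadjusted p under 0.05). There DESeq2 called 1, and limma 0 on log2(TPM + 1) and 1 on log2(TPM + 0.1). Irf1, an interferon-induced activator of class I genes, had 57.1, 28.1, 38.1 and 64.1 CPM in females on the high fat diet and 19.5, 19.0, 17.9 and 14.1 CPM on the normal diet. In males it had 16.3, 16.6, 15.9 and 14.4 CPM against 15.1, 18.5, 17.4 and 15.5 CPM. Its diet change differed between the sexes, with an interaction of 1.49 ± 0.27 (adjusted p = 0.0142), called in all 25 settings. Rfx5, the subunit of the factor complex that NLRC5 joins, had 12.6, 9.86, 11.7 and 14.6 CPM in females on the high fat diet against 5.15 to 6.46 CPM, with no library apart from its group. Of the 12, 3 were called in females without high fat diet replicates 1 and 4, where 2.96% of 15429 genes were.

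Of the 16 genes of interferon gamma signalling 14 were tested. In females 9 rose, with a median log2 fold change of 1.07 over the 14, and in males 2 rose, with a median of 0.27, where 5.74% and 6.03% of all genes were called higher. The difference between the sexes was called for 0 of the 14 by edgeR, DESeq2 or limma, with 8 at an unadjusted p under 0.05. Cd274, which encodes the checkpoint ligand PD-L1, rose by 2.63 ± 0.30 in females (adjusted p = 5.8e-05) and by 1.33 ± 0.31 in males (0.0112). Irf9 rose by 0.78 ± 0.10 in females (adjusted p = 0.000143), and Irgm1, an interferon-induced GTPase, by 0.74 ± 0.22 in males (0.04), a call lost with each of 12 libraries left out (adjusted p up to 0.105). Ifng itself was too low to test, with 9 counts over the 4 female normal diet libraries, 20 on the high fat diet, 0 in males on the normal diet and 5 on the high fat diet. Without female high fat diet replicates 1 and 4, 5 of the 14 were called in females and 6 in males, where 2.96% and 13.6% of all genes were. Of 10 genes of class II presentation, which shows peptides from outside the cell, 9 were tested. In females 4 rose, with a median of 1.29 over the 9, where 5.74% of all genes were called higher. The class II transactivator Ciita (1.94 ± 0.46, adjusted p = 0.0117) and the invariant chain Cd74 (1.28 ± 0.37, 0.0389) were among the 4. None of the 9 was called in males (0 at an unadjusted p under 0.05, 0 by DESeq2 or limma), and none in females without high fat diet replicates 1 and 4. Ciita was lost without female high fat diet replicate 4 alone (adjusted p = 0.0628), and Cd74 with each of 7 libraries left out (adjusted p up to 0.12). The other two, H2-Eb1 (1.59 ± 0.48, adjusted p = 0.0479) and H2-DMa (1.21 ± 0.38, 0.0494), were each called in 7 of 26 settings.

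**Figure D5:**
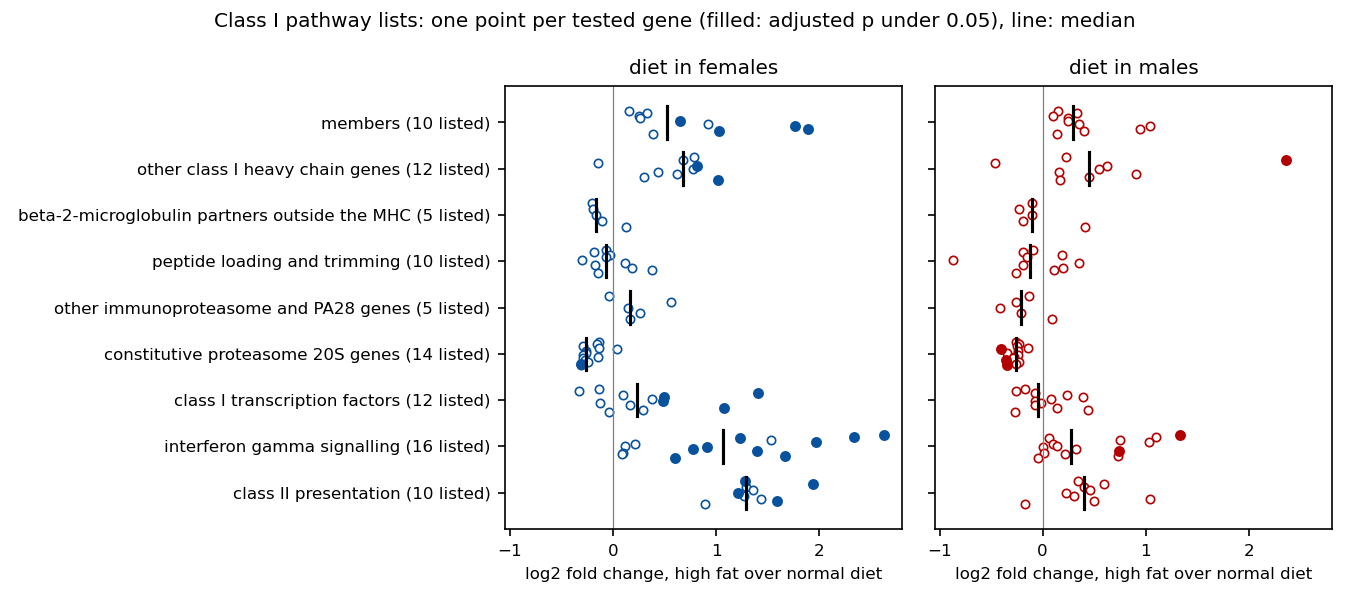
Log2 fold change, high fat over normal diet (horizontal axis), of each tested gene of the 10 members and of 8 related lists, in females (left) and males (right). Filled points had an adjusted p under 0.05 and vertical lines are list medians, which in females were 0.52 for the members, 1.07 for interferon gamma signalling and -0.07 for peptide loading and trimming.

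Markers of immune and other liver cells were read in the same libraries, since class I is high on leukocytes. No gene of the 9 marker lists was at 0 in every library of a group. The summed CPM of 10 Kupffer cell markers was 637, 634, 534 and 768 in female high fat diet replicates 1 to 4. On the normal diet it was 324 to 483. Of the 10, 2 were called higher (Csf1r and Cd5l), with 8 by DESeq2. Of all 14781 genes tested in females, edgeR called 5.74% as higher and DESeq2 called 1180 as higher. For 8 monocyte and neutrophil markers the sums were 118, 139.7, 102 and 153 against 79.0 to 106, with 5 of 8 called higher, Ly6c2 and Ccr2 among them. For 10 NK and cytotoxic cell markers they were 13.4, 6.38, 6.96 and 15.2 against 5.09 to 8.64 (2 of 6 tested called higher, Ccl5 and Klrk1). For 10 T cell markers they were 6.77, 4.83, 5.05 and 9.42 against 3.86 to 6.40 (0 of 6 called by edgeR, DESeq2 or limma, 1 at an unadjusted p under 0.05). The sums of 7 dendritic cell markers were 12.4, 8.50, 9.91 and 16.01 against 6.32 to 8.71 (1 of 7, Itgax), and those of 5 B cell markers 3.17, 3.21, 3.18 and 6.79 against 1.39 to 2.93 (0 of 4 by edgeR or DESeq2, 1 by limma, 1 at an unadjusted p under 0.05). Replicates 1 and 4, high for the 10 class I genes, were also the highest for T cell, NK, dendritic and, by a narrow margin for replicate 1, Kupffer cell markers. Other lists differed: for monocyte and neutrophil markers replicate 1 (118) was below replicate 2 (139.7). Replicate 1 was the lowest of its group for B cell (3.17), sinusoidal endothelial (193) and stellate cell markers (336). The class II sums of replicates 1 and 4 were 519 and 646 CPM, against 159 and 218 in replicates 2 and 3. With 1 library left out, of 16 such settings, the call was lost in 9 for Klrk1, 7 for Cd5l, 5 for Itgax, 4 for Ccl5, 2 for Csf1r and 0 for Ccr2 and Ly6c2. Without replicates 1 and 4 no gene of the Kupffer, monocyte and neutrophil, NK or dendritic lists was called in females, where 2.96% of 15429 genes were. Csf1r then had a log2 fold change of 0.63 (adjusted p = 0.0543), against 0.60 with all libraries, and Ccr2 1.16 (0.101) against 1.46. Lower were Cd5l (0.54 against 0.82), Ly6c2 (0.93 against 2.48), Ccl5 (0.65 against 1.83), Klrk1 (0.35 against 0.73) and Itgax (0.47 against 1.64). The Kupffer cell sums of replicates 2 and 3 were above the normal diet range. The part of these cells in the class I values was not tested.

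In males the Kupffer cell sum was 266 to 536 on the high fat diet and 299 to 459 on the normal diet. Of the 10 markers, 0 were called by edgeR, DESeq2 or limma, and 0 had an unadjusted p under 0.05. Of all genes, edgeR called 6.03% as higher in males. Monocyte and neutrophil sums were 59.9 to 83.6 and 45.3 to 99.5 (2 of 8 called higher, Ccr2 and Cx3cr1), NK sums 3.16 to 3.78 and 2.84 to 3.60, dendritic sums 9.18 to 9.95 and 6.42 to 9.08 and B cell sums 1.06 to 2.65 and 0.758 to 1.69. Of these last 3 lists edgeR, DESeq2 and limma called 0 of 6, 0 of 7 and 0 of 4, with 0, 1 and 0 at an unadjusted p under 0.05. T cell sums were 22.3 to 58.1 against 3.54 to 5.62, and most of the former was Themis (17.2 to 52.3 CPM), the 1 gene called of 6. Of 8 sinusoidal endothelial markers none was called in either sex by edgeR or DESeq2 (1 at an unadjusted p under 0.05 in each, and limma called 1 in females), with sums of 193 to 257 in females and 183 to 209.9 in males with the high fat diet, against 196 to 236 and 174 to 191. Of 6 stellate cell markers 2 were called higher in females (Pdgfrb and Des) and 0 in males (3 at an unadjusted p under 0.05, 0 by DESeq2, 1 by limma), with sums of 336 to 388 against 345 to 384 and of 291 to 352 against 234 to 292. Of 8 hepatocyte markers 1 was called lower in each sex, Cps1 in females and Alb in males, and the sums were 89983 to 107193 against 112822 to 126828 in females and 69438 to 86732 against 92447 to 107133 in males.

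Across the 16 libraries the log2 CPM of the members rose and fell together, as a description of libraries that share diet and sex and include the high replicates 1 and 4. Pairwise Pearson r ran from 0.23 (Nlrc5 and H2-T23) to 0.96 (Psmb8 and Tapbp). Against the mean of the other 9 genes, r was highest for Psmb8 (0.98), Psmb9 (0.95) and Tap2 (0.94) and lowest for Nlrc5 (0.61). Among the 5 tested genes outside the set with the highest r to the mean of the 10 were H2-Q4 (0.98), the interferon-induced GTPase Tgtp1 (0.97), 2 genes without a symbol in the table used, ENSMUSG00000134402.1 (0.97) and ENSMUSG00000143426.1 (0.96). Their Spearman rho was 0.96, 0.85, 0.91 and 0.88.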

How the data were processed

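RNA of whole liver powder, 4 libraries for each sex and diet (16 in all), was enriched for polyA, made into libraries with NEBNext Ultra and sequenced on a NovaSeq, all in batch 1, per the labels' protocols. STAR, RSEM and the build GRCm39 are named, per the submitters' processing notes. The authors deposited expected counts per gene, which are RSEM estimates without normalization, and a TPM table, scaled per library and by gene length. Annotation release, software versions and strand setting are not given in the sources used here.

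Expected counts (22228115 to 41420589 a library, 4.89% of entries not whole) were rounded and scaled by TMM. After filterByExpr 14781 of 78317 genes, with 99.94% of counts, were tested with edgeR 4.0.16 (robust quasi-likelihood, 1 mean per group, R 4.3.3), two-sided, Benjamini-Hochberg adjusted over all tested genes, threshold 0.05. Standard errors are the log2 fold change over the root of F. Summed heavy chains went through the same fit, and ratios through exact permutation tests. The procedure was tested on simulated data. Alternatives were DESeq2 1.42.0, its size factors, limma 3.58.1 on log2(TPM + 1) and log2(TPM + 0.1), no filter, only the compared groups, the replicate block, averaging near-identical libraries, and leaving out each library. Leaving out female high fat diet replicates 1 and 4 together was added after seeing the data.

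The members and all lists (further heavy chains, B2m partners, loading and trimming, PA28, constitutive core, transcription factors, interferon gamma signalling, class II, and 9 marker lists) were chosen with earlier results of these data known. Named were all members, the 2 called genes with the smallest p of each list and sex, 15 genes chosen for their role, and the 5 genes most like the members. Further genes were named, after their values were seen, where a count was 5 or fewer. Of these genes 1, and 1 of the promoter motifs, are not reported here. Replicate numbers did not pair the libraries (24 same-number pairs, r from -0.20 to 0.11). Reference annotation was GRCm38, so no coordinates of the authors' build are given.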

Additional observations from a re-analysis of the deposited data

Results flagged for a closer look

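Of 196 groups of 4 libraries examined, 9 held a library whose gap to its nearest neighbour exceeded Dixon's 95% critical value; chance alone gives about 1 in 20. Among the members, H2-T23 had 161 CPM in male high fat diet replicate 1, against 138 to 141 CPM in the other libraries of its group. Psmb9 had 6.71 CPM in male normal diet replicate 1, against 4.196 to 4.45 CPM. The same library was the high one for Psmb6 (73.4 CPM, against 58.2 to 59.3) and Psmb7 (153 CPM, against 118 to 123). Psmb6 also had 75.8 CPM in female normal diet replicate 1, against 66.8 to 67.7 CPM. H2-Q1 had 15.2 CPM in female normal diet replicate 3, against 8.31 to 9.12 CPM, and H2-T24 had 2.97 CPM in female normal diet replicate 2, against 1.98 to 2.11 CPM. Erap1 had 143 CPM in male high fat diet replicate 1, below the 161 to 164 CPM of the others. Cps1 had 4258 CPM in male normal diet replicate 2, against 3539 to 3651 CPM.

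The diet change differed between the sexes by the interaction test of edgeR for 2 of the genes named. For Irf1 the log2 interaction, females minus males, was 1.49 (adjusted p = 0.0142). For Themis it was -4.35 (adjusted p = 0.0158).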

How the results depend on the processing

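Tap1 in females and H2-T23 between the sexes on the normal diet were called in all 26 settings. Without female high fat diet replicates 1 and 4 together, members called were 1 in place of 4 in females, 3 in place of 0 in males, 2 in place of 1 for the sexes with normal chow and 0 in place of 6 with the high fat diet. All genes called were then, of 15429, 456 in females, 2099 in males, 2740 between the sexes on the normal diet and 1142 on the high fat diet. Female changes reversed to -0.03 (H2-K1), -0.02 (H2-D1), -0.17 (H2-T23), -0.07 (Tapbp), -0.13 (Psmb10), -0.25 (Psme2), -0.34 (Psme1) and -0.13 (summed heavy chains). Interactions reversed to -0.08 (Tap2), -0.46 (Psmb9), -0.30 (Psmb8), -0.04 (Nlrc5), -0.21 (Tapbp), -0.13 (H2-K1), -0.41 (H2-T23), -0.14 (B2m) and -0.06 (summed heavy chains), and sex differences on the high fat diet to -0.08 (H2-D1) and -0.36 (Nlrc5). The summed heavy chains there had 0.17, and the log2 ratios 0.40 and 0.57 (Psmb8 to Psmb5, females and males) and 1.03 and 1.33 (Psmb9 to Psmb6). These 2 libraries were chosen on the same values; otherwise the cause was not tested.

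With only the 2 groups compared, members called were 1 (females), 2 (males), 3 (sex, normal diet) and 1 (sex, high fat diet). In that order, all genes called were 1439 of 14009, 1438 of 13908, 2712 of 14038 and 1958 of 14143. DESeq2 called 2 members in males, where 2250 of 14781 genes were called, and 341 genes for the interaction. The interaction of H2-D1, -0.00, was 0.01 with DESeq2 or its size factors and 0.13 on both TPM scales. On log2(TPM + 1) limma called 7 members in females, and on log2(TPM + 0.1) 1 in males. Averaging male high fat diet replicates 2 and 3 gave 3 members for sex on the high fat diet (2595 of 15048 genes in all) and 58 genes for the interaction. TPM moved the median of all genes by 0.15 or 0.22 in females, 0.11 or 0.15 for the interaction and 0.10 or 0.15 for sex on the high fat diet. On log2(TPM + 1) and log2(TPM + 0.1) it made 2644 higher and 282 lower, or 2487 and 276, in females (2926 and 2763 in all), against 848 and 852. The splits were 899 and 443, or 953 and 440, in males (891 and 793 with edgeR), 59 and 38, or 55 and 31, for the interaction (39 and 61), 941 and 809, or 1011 and 841, for sex on the normal diet (1039 and 1283), and 2957 and 753, or 2808 and 737, on the high fat diet (1306 and 1716).

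With the replicate block, members called stayed at 4, 0, 0, 1 and 6, and the summed heavy chains lost their call between the sexes on the high fat diet (0.42, adjusted p = 0.0556); the narrower sum of 6 genes gave 0.37. The block called 1864 genes in females, 1980 in males, 101 for the interaction, 2685 for sex on the normal diet and 3445 on the high fat diet. Only 2 of 16 libraries correlated best with their own number. With 1 library left out, members called ranged from 3 to 6 in females, 0 to 2 in males and 3 to 7 between the sexes on the high fat diet, where Nlrc5 ranged from -0.08 to 0.21 and the summed heavy chains from 0.31 to 0.52. Psme1 in females then ranged from -0.02 to 0.31, and interactions from -0.11 to 0.08 (B2m), -0.04 to 0.26 (H2-K1), -0.23 to 0.11 (H2-D1) and -0.13 to 0.15 (H2-T23). All genes called ranged from 947 to 1874 in females, 1113 to 2043 in males, 51 to 176 for the interaction, 1325 to 2766 for sex on the normal diet and 1974 to 3062 on the high fat diet. Log2 ratios ranged from 0.71 to 1.25 and 0.50 to 0.68 (Psmb8 to Psmb5, females and males), 1.53 to 2.17 and 1.26 to 1.41 (Psmb9 to Psmb6), and 0.54 to 1.00 and -0.00 to 0.18 (Psmb10 to Psmb7). The cause of these shifts was not tested. Nlrc5 had as few as 199 counts and Psmb9 99 in a library, and the effect of dividing reads among heavy chain genes was not tested.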
